A study of Rattus norvegicus with 16 samples.

Results

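The Wnt genes of the rat cornea were examined as a module of 41 genes: the Wnt ligands, their Frizzled, Lrp and Lgr receptors, the secreted inhibitors, the R-spondins and the intracellular and nuclear genes that carry the signal. Members were taken by gene symbol from the annotation of the array, with no measured value used, and made up 41 of the 14217 genes and 68 of the 31042 probe sets tested. By role they were 13 ligands, 10 receptors, 8 secreted inhibitors, 2 R-spondins and 8 intracellular or nuclear genes. A further 12 genes of these families (*Wnt3*, *Wnt3a*, *Wnt7b*, *Wnt8a*, *Wnt9b*, *Wnt10b*, *Fzd7*, *Fzd9*, *Fzd10*, *Dkk1*, *Dkk4* and *Rspo2*) were not analysed here, since no probe set was annotated to them alone.

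Transcript levels were measured on Affymetrix rat expression arrays in corneas of male Wistar rats aged 12 to 16 weeks, with 4 arrays per group and 1 cornea per array. In 3 groups, sutures placed 1.5 mm from the limbus were used to induce inflammation and new vessel growth, and eye drops were given 4 times a day for 2 days: dexamethasone (1 mg/ml, a synthetic glucocorticoid), a goat antibody against rat *Vegf* (anti-*Vegf*, named for VEGFA in the labels and as a pan-*Vegf* antibody in the methods), or goat IgG, the antibody's control (named an anti-IgG antibody in the labels). The naïve group had neither sutures nor drops, so any contrast with it covers suture and drops together. No sutured group went without drops, and the study saw no new vessel sprouts in sutured corneas after these 2 days. The labels give 20 mg/ml for both antibodies, and the study's methods give a smaller unit, so the antibody dose is not settled here. The labels describe the sample as cornea without the scleral rim, while the methods describe the piece between limbus and suture. In either case the RNA came from a mixture of epithelium, stroma, endothelium and infiltrating cells.

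Wnt ligands are secreted lipid-modified proteins that bind Frizzled receptors. With the co-receptors Lrp5 and Lrp6 they keep β-catenin (*Ctnnb1*) from being degraded, so that it enters the nucleus and acts with Tcf and Lef factors on target genes. Other ligands act without β-catenin, through cell polarity and calcium. Secreted Frizzled-related proteins (Sfrp genes and *Frzb*) and *Wif1* hold the ligands outside the cell, the Dickkopf proteins Dkk1 and Dkk2 bind the Lrp co-receptors, and R-spondins raise the amount of receptor at the surface. In the cornea the pathway is known for its part in the limbal stem cells of the epithelium and in the keratocytes of the stroma, and in the eye *Fzd4* and *Lrp5* are needed for normal retinal vessels.

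Levels are RMA values on a log2 scale, so a difference of 1 is a doubling. Values of different probe sets were not set against each other, apart from ranking those of the same gene by mean. The 4 values of a group are given in the order of its replicates 1 to 4. Array medians ran between 6.55 and 6.62, and pairwise correlations between 0.963 and 0.995. The spike-in poly-A controls, RNAs added during labelling, averaged 4.94 in dexamethasone, 6.47 in anti-*Vegf*, 6.65 in IgG and 4.88 in naïve arrays, and the difference between dexamethasone and IgG was -1.71 (two-sided exact permutation test, p = 0.029, the smallest that 4 against 4 allows). The 5′ minus 3′ signal of beta-actin, a measure of RNA and label length, was -1.17 in dexamethasone, -0.87 in anti-*Vegf*, -0.70 in IgG and -1.28 in naïve arrays. It split the naïve arrays, at -1.69 and -1.75 in arrays 1 and 2 and at -0.87 and -0.82 in arrays 3 and 4. Of 9 corneal epithelium markers, 1 was called higher than naïve with dexamethasone, 1 with anti-*Vegf* and 2 with IgG, and 0 lower. Their differences ran from -0.54 to 1.55, -0.45 to 1.69 and -0.44 to 1.62 in that order, and the cornea-specific keratin *Krt12* differed by -0.06, -0.07 and -0.06. Leukocyte markers were called higher than naïve for 10 of 12 genes in each treatment group, and of 6 glucocorticoid target genes 5 were higher with dexamethasone than with anti-*Vegf* and 4 higher than with IgG.

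Against naïve corneas, more members were lower than higher under each treatment. A gene was represented by its probe set with the highest mean and was called against naïve at a limma p-value adjusted over all probe sets under 0.05 together with a change of at least 1.5-fold. With dexamethasone, 2 members were higher and 7 lower (4.88% and 17.1% of 41), beside 8.19% and 4.45% of all genes. With anti-*Vegf*, 1 was higher and 9 lower (2.44% and 21.95%), beside 6.82% and 5.94% of all genes. With IgG, 0 were higher and 6 lower (14.6%), beside 6.32% and 5.02% of all genes. The median change of the members was -0.09 with dexamethasone, -0.11 with anti-*Vegf* and -0.05 with IgG, while that of all genes was 0.00, -0.01 and -0.01. All 3 comparisons use the same 4 naïve arrays, so they are given side by side and are not independent of each other. In tissue of mixed cells, fewer cells of a type and less RNA per cell cannot be told apart. Each array is 1 cornea, so the p-values set a difference of group means against the spread between corneas within the 4 groups.

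**Figure D1:**
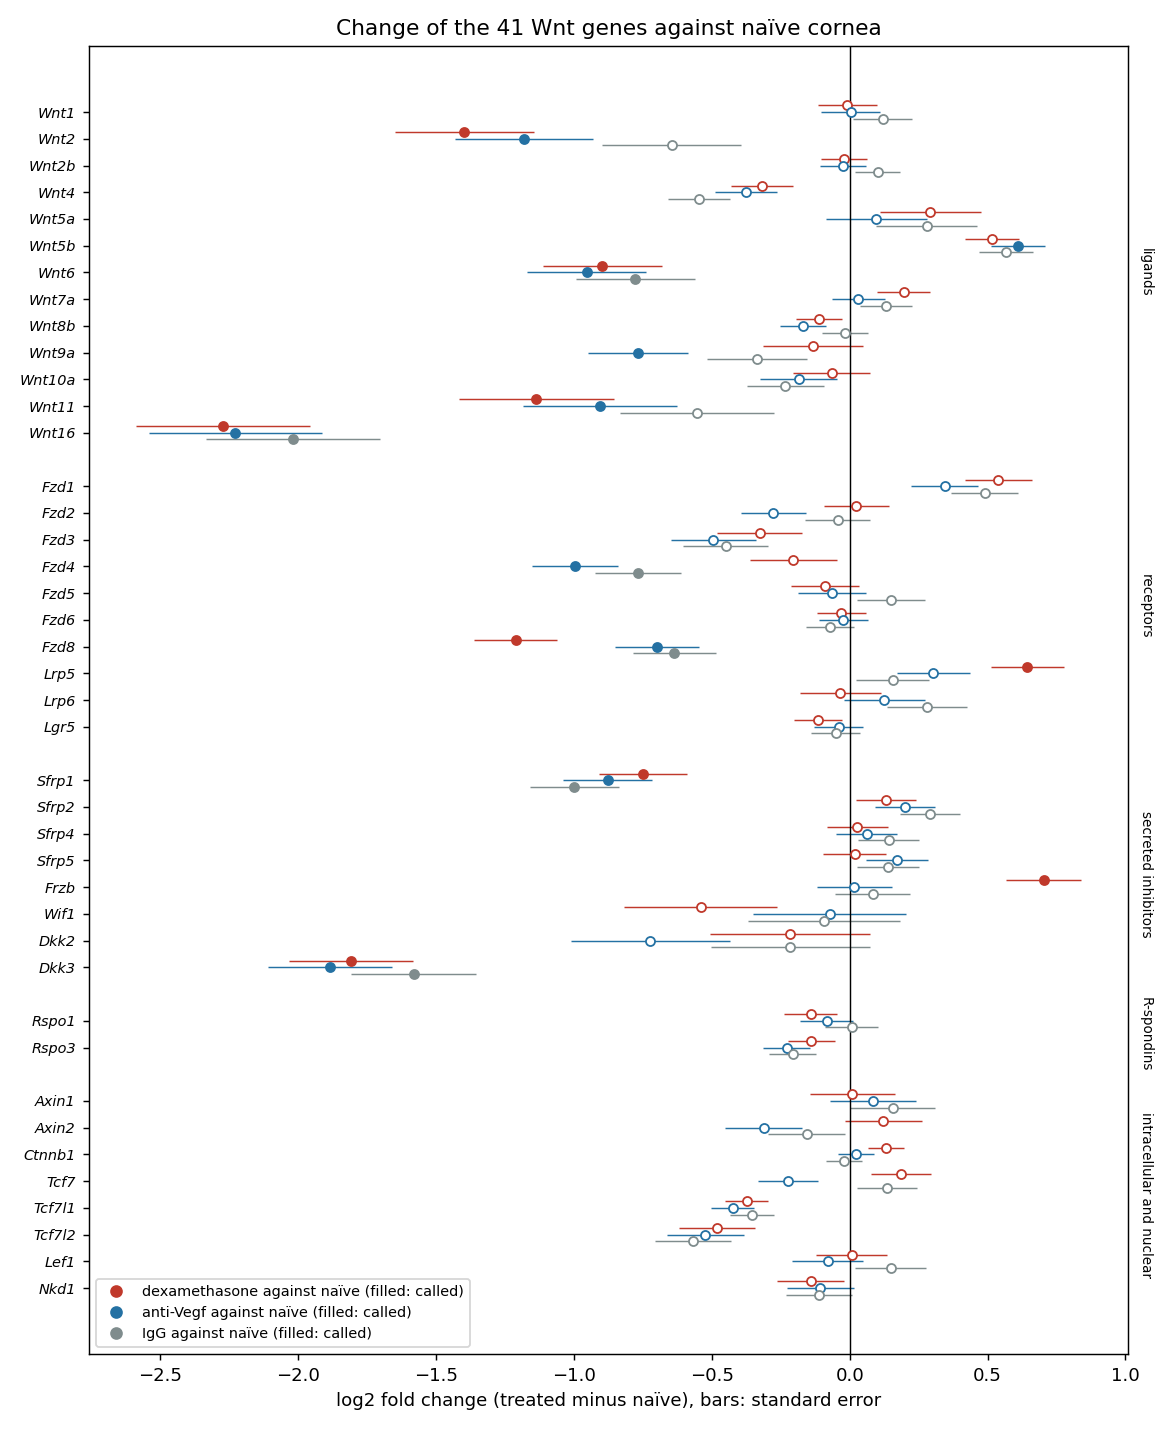
Log2 change of each of the 41 Wnt genes (down the page, grouped by role) against naïve corneas with dexamethasone, anti-*Vegf* and IgG. Bars are SE from limma and filled points passed both limits. The called falls to the left are *Wnt16*, *Dkk3*, *Fzd8*, *Sfrp1* and *Wnt6* with every treatment and *Wnt2* and *Wnt11* with dexamethasone and anti-*Vegf*. *Fzd4* with anti-*Vegf* and IgG and *Wnt9a* with anti-*Vegf* are the others. To the right, the called changes are *Lrp5* and *Frzb* with dexamethasone and *Wnt5b* with anti-*Vegf*.

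Among the 13 ligands, 5 fell and 1 rose in at least 1 of the 3 comparisons with naïve, in which 7.8% of all genes were lower and 10.4% higher in at least 1. The ligand with the largest change was *Wnt16*, known in mice for keeping cortical bone thick. It read 5.82, 4.42, 5.51 and 5.41 with dexamethasone, 5.69, 5.95, 5.03 and 4.68 with anti-*Vegf* and 5.97, 5.61, 5.57 and 5.04 with IgG, against 7.83, 7.76, 7.72 and 6.95 in naïve corneas. Every treated cornea lay below every naïve cornea. *Wnt16* fell by 2.27 with dexamethasone (4.84-fold, limma adjusted p = 8.79e-05), by 2.23 with anti-*Vegf* (4.68-fold, adjusted p = 8.99e-05) and by 2.02 with IgG (4.05-fold, adjusted p = 2.35e-04), each with an SE of 0.32. Only 5 of the 16 arrays, the 4 naïve ones and IgG replicate 1 (5.97), lay above the 40th percentile of their own array (5.89 to 5.99), so most treated values lay in the dimmer part of their array. The window around the start of *Wnt16* is shown for this member of largest change (RefSeq, rat assembly GRCr8, chr4:51786478-51786777, plus strand, 250 bases before to 50 after the start), in which neither of the letter patterns described with *Frzb* and *Axin2* was found:
*Wnt16*: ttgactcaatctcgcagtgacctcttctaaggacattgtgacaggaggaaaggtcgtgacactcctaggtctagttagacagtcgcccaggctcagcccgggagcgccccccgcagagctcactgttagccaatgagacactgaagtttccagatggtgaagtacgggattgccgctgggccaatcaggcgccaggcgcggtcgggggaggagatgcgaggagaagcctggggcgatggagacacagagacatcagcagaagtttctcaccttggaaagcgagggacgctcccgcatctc

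*Wnt2*, which in mice specifies the lung and builds placental vessels, read 6.67, 5.59, 5.70 and 6.17 with dexamethasone, 6.76, 6.28, 5.83 and 6.12 with anti-*Vegf* and 6.71, 6.69, 6.98 and 6.75 with IgG, against 7.33, 7.96, 7.59 and 6.83 in naïve corneas. Dexamethasone and anti-*Vegf* corneas all lay under the lowest naïve cornea, while 1 IgG cornea lay above it. The highest anti-*Vegf* cornea was above 3 of the IgG corneas, so these groups overlapped. *Wnt2* changed by -1.40 ± 0.25 (SE, adjusted p = 7.67e-04) with dexamethasone and by -1.18 ± 0.25 (SE, adjusted p = 0.00236) with anti-*Vegf*, and its difference with IgG was -0.65 ± 0.25 (SE, adjusted p = 0.0691), outside the limit. Its other probe set gave -1.78, -1.64 and -0.92 in the same order, with calls for dexamethasone and anti-*Vegf* too.

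*Wnt6*, a ligand of surface epithelia, read 8.32, 7.38, 8.31 and 8.003 with dexamethasone, 8.49, 8.11, 7.52 and 7.67 with anti-*Vegf* and 8.09, 8.07, 8.19 and 8.14 with IgG, against 9.18, 9.09, 8.61 and 8.73 in naïve corneas. No treated cornea reached the lowest naïve cornea. The fall was 0.90 with dexamethasone (adjusted p = 0.00642), 0.95 with anti-*Vegf* (adjusted p = 0.00369) and 0.78 with IgG (adjusted p = 0.0137), with an SE of 0.22 (limma). Without naïve arrays 1 and 2, which were also those of low actin 5′ signal, the differences were -0.67, -0.72 and -0.55 (adjusted p = 0.0911, 0.0634 and 0.169). The part of RNA length in the fall was not tested. A dimmer *Wnt6* probe set differed by -0.03, 0.06 and -0.04 with dexamethasone, anti-*Vegf* and IgG.

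*Wnt11*, which mostly acts without β-catenin and guides cell movement in zebrafish gastrulation, read 6.16, 5.59, 5.22 and 6.02 with dexamethasone, 6.32, 5.56, 5.99 and 6.04 with anti-*Vegf* and 6.10, 6.31, 6.46 and 6.45 with IgG, against 6.20, 6.36, 7.53 and 7.45 in naïve corneas. Here the naïve corneas split, with arrays 3 and 4 more than 1 log2 unit above arrays 1 and 2, the same split as in the actin 5′ signal, whose part in it was not tested. The fitted change was -1.14 ± 0.28 (SE, adjusted p = 0.00758) with dexamethasone and -0.91 ± 0.28 (SE, adjusted p = 0.0248) with anti-*Vegf*, and -0.55 ± 0.28 (SE, adjusted p = 0.163) with IgG. Without naïve arrays 3 and 4 the difference was -0.53 with dexamethasone (adjusted p = 0.126) and -0.30 with anti-*Vegf* (adjusted p = 0.383). The call with anti-*Vegf* was also lost without anti-*Vegf* replicate 2 or 3, or naïve replicate 3 or 4 (-1.13 to -0.69 over all single arrays left out). The other *Wnt11* probe set had the higher mean in each sutured group and the lower mean in naïve corneas only (6.22 against 6.88). The called probe set thus represents the gene through its naïve values. The other was not called against naïve, at -0.31 ± 0.16 (SE, adjusted p = 0.200) with dexamethasone, 0.10 ± 0.16 (SE, adjusted p = 0.692) with anti-*Vegf* and 0.26 ± 0.16 (SE, adjusted p = 0.246) with IgG. The falls thus rest on 1 probe set and on the same pair of naïve corneas.

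*Wnt9a*, a ligand of joint formation in mice, read 7.39, 7.01, 6.81 and 7.08 with dexamethasone, 6.83, 6.29, 6.15 and 6.47 with anti-*Vegf* and 7.26, 6.35, 6.996 and 6.87 with IgG, against 7.27, 6.95, 7.33 and 7.27 in naïve corneas. Anti-*Vegf* corneas lay below all naïve corneas, while dexamethasone and IgG corneas overlapped with them. Its change was -0.77 ± 0.18 (SE, adjusted p = 0.00509) with anti-*Vegf*, and the differences of -0.13 ± 0.18 (SE, adjusted p = 0.682) with dexamethasone and -0.34 ± 0.18 (SE, adjusted p = 0.193) with IgG did not pass. *Wnt5b*, which mostly acts without β-catenin, was the ligand that rose: it read 6.69, 6.97, 6.77 and 6.85 with dexamethasone, 6.68, 6.89, 7.02 and 7.07 with anti-*Vegf* and 6.90, 6.74, 7.08 and 6.76 with IgG, against 6.32, 6.27, 6.38 and 6.26 in naïve corneas. All 12 sutured corneas lay above all 4 naïve corneas. The change of 0.61 ± 0.10 (SE, adjusted p = 2.64e-04) with anti-*Vegf* was just over 1.5-fold and those of 0.52 ± 0.10 (SE, adjusted p = 0.00120) with dexamethasone and 0.57 ± 0.10 (SE, adjusted p = 5.35e-04) with IgG just under it. The 1.5-fold limit was no longer reached with anti-*Vegf* without anti-*Vegf* replicate 3 or 4 (0.56 to 0.69 over all single arrays).

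The other 7 ligands (*Wnt1*, *Wnt2b*, *Wnt4*, *Wnt5a*, *Wnt7a*, *Wnt8b* and *Wnt10a*) were not called. *Wnt4*, which in mice is needed for the kidney tubule, passed the p-value limit but not 1.5-fold, at -0.37 ± 0.11 (SE, adjusted p = 0.0209) with anti-*Vegf* and -0.55 ± 0.11 (SE, adjusted p = 0.00191) with IgG, beside -0.32 ± 0.11 (SE, adjusted p = 0.0544) with dexamethasone. In 34 of the 41 members the probe set exceeded the 40th percentile of its array on at least 4 arrays, a filter that a member high in a single group also passes. *Wnt7a*, *Wnt8b*, *Lgr5*, *Sfrp4*, *Sfrp5*, *Rspo1* and *Nkd1* did not exceed it, so the absence of a call in these 7 says little about their transcripts.

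**Figure D2:**
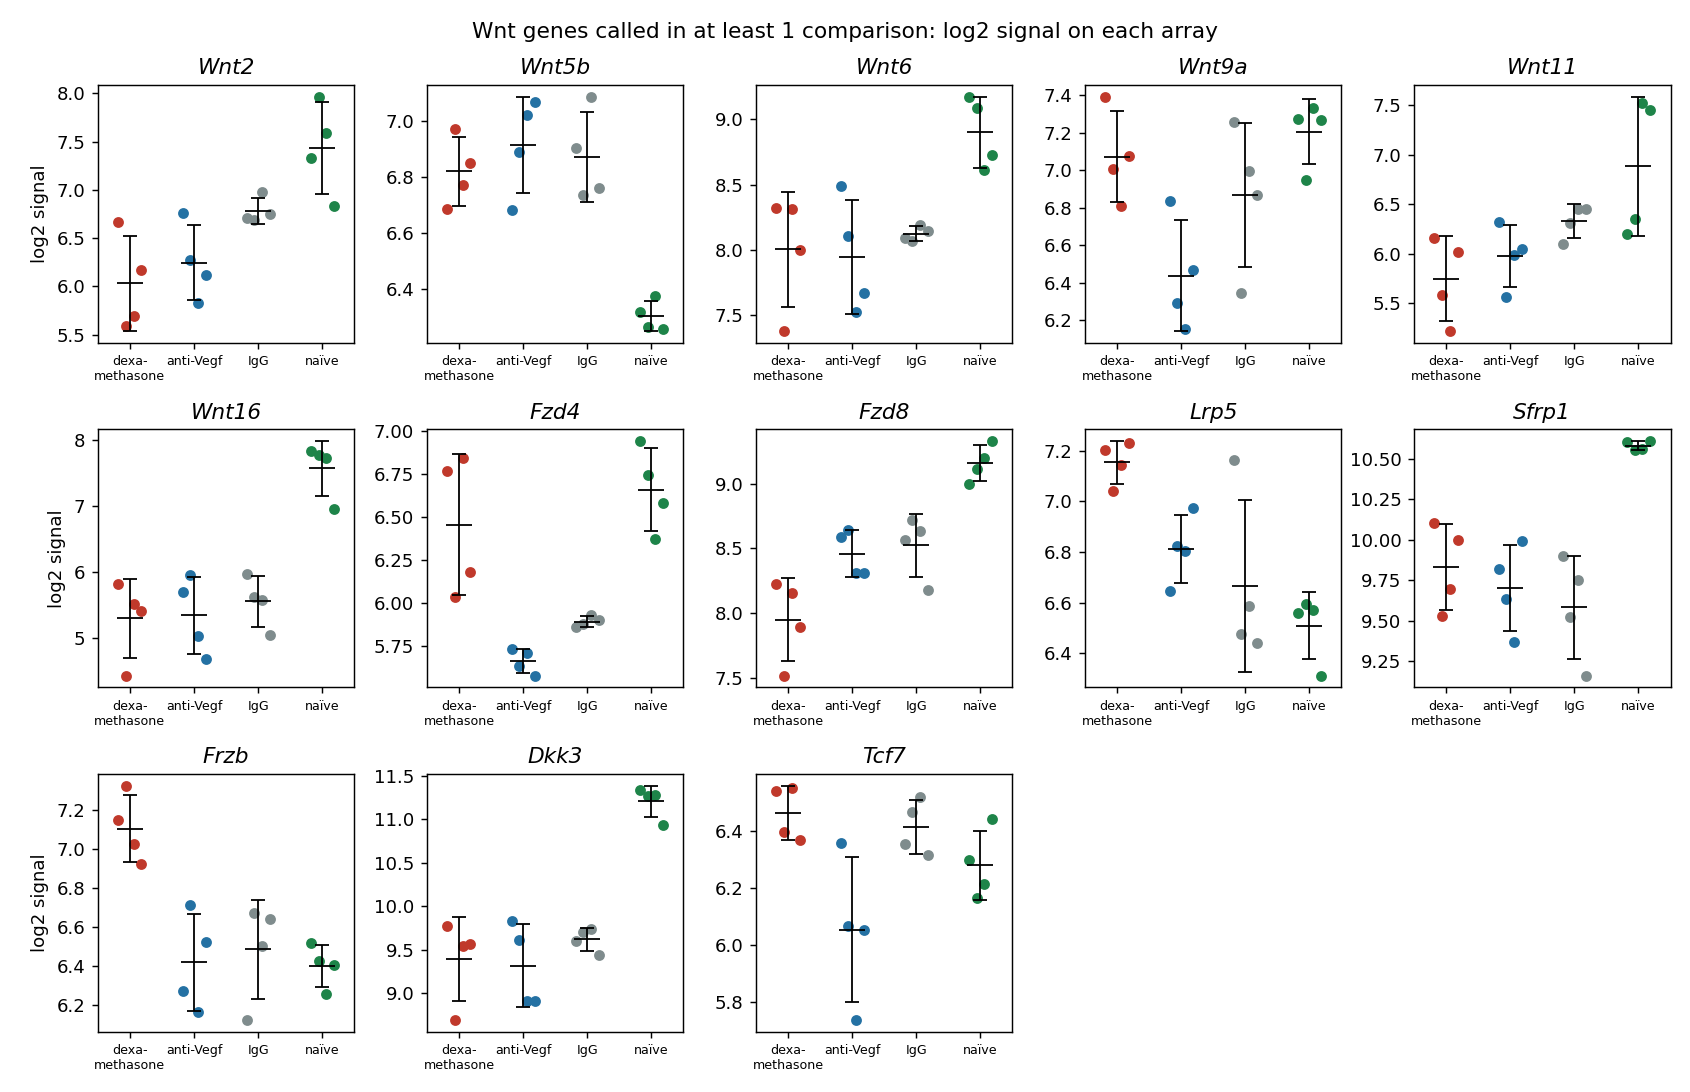
Log2 signal of the 13 called Wnt genes on each of the 16 arrays (points), with the mean and SD (bar) of dexamethasone, anti-*Vegf*, IgG and naïve corneas. All treated points of *Wnt16*, *Wnt6*, *Sfrp1*, *Dkk3* and *Fzd8* lie below the naïve points, all dexamethasone points of *Frzb* lie above every other group, and the naïve points of *Wnt11* fall into a lower and a higher pair.

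Of the 10 receptors, 2 fell and 1 rose in at least 1 comparison with naïve, beside the 7.8% and 10.4% of all genes. *Fzd8*, a Frizzled receptor that can signal through β-catenin, read 8.23, 7.52, 8.16 and 7.89 with dexamethasone, 8.58, 8.64, 8.31 and 8.31 with anti-*Vegf* and 8.56, 8.72, 8.63 and 8.18 with IgG, against 8.997, 9.11, 9.20 and 9.33 in naïve corneas. All treated corneas were below all naïve corneas, and those given dexamethasone were lowest, with 3 of them under every array of the other groups. *Fzd8* fell by 1.21 with dexamethasone (2.32-fold, adjusted p = 3.40e-05), by 0.70 with anti-*Vegf* (adjusted p = 0.00266) and by 0.64 with IgG (adjusted p = 0.00519), with an SE of 0.15 (limma). The IgG change no longer reached 1.5-fold without IgG replicate 4 or naïve replicate 4 (-0.70 to -0.52 over all single arrays). That change was also under 1.5-fold without naïve arrays 3 and 4, and under another scaling of the arrays (cyclic loess).

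*Fzd4*, the receptor of Norrin and of several Wnt ligands, read 6.77, 6.03, 6.84 and 6.18 with dexamethasone, 5.74, 5.63, 5.71 and 5.58 with anti-*Vegf* and 5.86, 5.88, 5.93 and 5.90 with IgG, against 6.94, 6.75, 6.37 and 6.58 in naïve corneas. Dexamethasone corneas lay among the naïve ones or below them, and both antibody groups lay below all of these. It fell by 1.00 with anti-*Vegf* (adjusted p = 2.21e-04) and by 0.77 with IgG (adjusted p = 0.00185), while dexamethasone differed by -0.20 ± 0.16 (SE, adjusted p = 0.416). Without naïve arrays 1 and 2, or with probe sets averaged, the IgG change was under 1.5-fold. All 8 dexamethasone and naïve arrays but none of the antibody arrays lay above the 40th percentile of their own array, so the probe set passed the signal filter only through the groups where it was high, and the differences are set against dim values. A further probe set of *Fzd4* gave -0.36, -0.45 and -0.38 (SE 0.12) for dexamethasone, anti-*Vegf* and IgG, with no call.

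The co-receptor *Lrp5* read 7.20, 7.04, 7.14 and 7.23 with dexamethasone, 6.65, 6.82, 6.80 and 6.98 with anti-*Vegf* and 7.17, 6.48, 6.58 and 6.44 with IgG, against 6.56, 6.59, 6.57 and 6.31 in naïve corneas. All dexamethasone and anti-*Vegf* corneas were above the naïve ones, whereas IgG corneas overlapped with them apart from a single high value in replicate 1. *Lrp5* rose by 0.64 ± 0.13 (SE, adjusted p = 0.00210) with dexamethasone and differed by 0.30 ± 0.13 (SE, adjusted p = 0.107) with anti-*Vegf* and 0.16 ± 0.13 (SE, adjusted p = 0.422) with IgG. The dexamethasone change was just under 1.5-fold without naïve replicate 4, the lowest naïve array (0.58 to 0.68 over all single arrays), and was 0.47 on the other probe set (adjusted p = 0.0183). Leaving out naïve arrays 3 and 4, averaging probe sets or centring on reference genes also took it under 1.5-fold. The receptors *Fzd2*, *Fzd5*, *Fzd6*, *Lrp6* and *Lgr5* were not called, and *Fzd1* and *Fzd3* passed the p-value limit without 1.5-fold: *Fzd1* at 0.54, 0.35 and 0.49 (adjusted p = 0.00404, 0.0459 and 0.00683) with dexamethasone, anti-*Vegf* and IgG, and *Fzd3* at -0.49 and -0.45 with anti-*Vegf* and IgG (adjusted p = 0.0259 and 0.0410). *Lrp6*, the co-receptor most like *Lrp5*, differed from naïve by -0.03, 0.13 and 0.28 with dexamethasone, anti-*Vegf* and IgG.

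Of the 8 secreted inhibitors, *Dkk3* and *Sfrp1* fell with all 3 treatments and *Frzb* rose with dexamethasone. Of all genes, 7.8% were lower and 10.4% higher in at least 1 comparison with naïve. *Dkk3* belongs to the Dickkopf family by sequence, although it is not known to block the Lrp co-receptors as Dkk1 does. It read 9.78, 8.69, 9.54 and 9.56 with dexamethasone, 9.83, 9.62, 8.92 and 8.91 with anti-*Vegf* and 9.60, 9.70, 9.74 and 9.44 with IgG, against 11.33, 11.27, 11.28 and 10.94 in naïve corneas. The highest treated cornea was more than 1 log2 unit below the lowest naïve cornea. *Dkk3* fell by 1.81 with dexamethasone (3.50-fold, adjusted p = 3.36e-05), 1.89 with anti-*Vegf* (3.69-fold, adjusted p = 2.09e-05) and 1.58 with IgG (2.99-fold, adjusted p = 1.07e-04), with an SE of 0.23 (limma). Its 3 further probe sets gave smaller differences, between -0.53 and -0.02 against naïve, none of them called.

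*Sfrp1*, which binds Wnt ligands and Frizzled receptors, read 10.10, 9.53, 9.69 and 9.999 with dexamethasone, 9.82, 9.64, 9.37 and 9.99 with anti-*Vegf* and 9.90, 9.52, 9.75 and 9.16 with IgG, against 10.60, 10.55, 10.56 and 10.61 in naïve corneas. The naïve arrays lay within 0.1 of each other and above every treated array. *Sfrp1* fell by 0.75 with dexamethasone (adjusted p = 0.00284), 0.88 with anti-*Vegf* (adjusted p = 7.67e-04) and 1.00 with IgG (adjusted p = 3.05e-04), with an SE of 0.16 (limma). The 2 other *Sfrp1* probe sets were not called against naïve, and the first of them read -0.57, 0.06 and -0.04 with dexamethasone, anti-*Vegf* and IgG, which is not the pattern of the brightest. The dimmest went the way of the brightest, at -0.33, -0.40 and -0.38 (limma adjusted p = 0.0746, 0.0272 and 0.0328) and with no overlap with naïve, but under 1.5-fold.

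*Frzb*, the secreted Frizzled-related protein first described in cartilage, read 7.15, 7.32, 7.02 and 6.92 with dexamethasone, 6.27, 6.71, 6.16 and 6.52 with anti-*Vegf* and 6.12, 6.67, 6.50 and 6.64 with IgG, against 6.52, 6.43, 6.26 and 6.40 in naïve corneas. All dexamethasone corneas were above all others, and the antibody groups overlapped with naïve. *Frzb* rose by 0.70 ± 0.14 (SE, adjusted p = 0.00134) with dexamethasone, and differed by 0.02 ± 0.14 (SE, adjusted p = 0.943) with anti-*Vegf* and 0.08 ± 0.14 (SE, adjusted p = 0.697) with IgG. The window around its start was searched because dexamethasone acts through the glucocorticoid receptor, whose palindrome is written here as GNACANNNTGTNC. These letters were in 0 of the 29 member windows that matched by symbol and in 0.44% of 33469 windows of all genes, which says only that they are not in these windows. The *Frzb* window is shown as that of the member called higher with dexamethasone in all 3 of its comparisons (RefSeq GRCr8, chr3:85772047-85772346, minus strand):
*Frzb*: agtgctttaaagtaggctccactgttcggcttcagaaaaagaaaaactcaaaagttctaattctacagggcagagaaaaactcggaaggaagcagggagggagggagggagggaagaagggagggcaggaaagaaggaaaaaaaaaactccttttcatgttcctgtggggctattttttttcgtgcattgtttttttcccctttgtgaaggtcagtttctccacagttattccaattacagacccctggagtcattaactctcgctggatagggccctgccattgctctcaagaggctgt

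The remaining inhibitors *Sfrp2*, *Sfrp4*, *Sfrp5*, *Wif1* and *Dkk2* were not called in any comparison. *Wif1*, which binds Wnt ligands directly, differed from naïve by -0.54 ± 0.28 (SE, adjusted p = 0.194) with dexamethasone, -0.07 ± 0.28 (SE, adjusted p = 0.881) with anti-*Vegf* and -0.09 ± 0.28 (SE, adjusted p = 0.844) with IgG. *Dkk2*, a ligand of the Lrp co-receptors that in mice is needed for a cornea rather than skin to form, differed by -0.22 ± 0.29 (SE, adjusted p = 0.675), -0.72 ± 0.29 (SE, adjusted p = 0.0789) and -0.21 ± 0.29 (SE, adjusted p = 0.635) in the same order. None of these passed the test. The R-spondins *Rspo1* and *Rspo3*, whose receptors include *Lgr5*, were not called: *Rspo1* differed by -0.14, -0.08 and 0.01 (SE 0.10) and *Rspo3* by -0.14, -0.23 and -0.21 (SE 0.09) with dexamethasone, anti-*Vegf* and IgG. By array, *Rspo3* read 5.79, 5.95, 5.97 and 5.95 with dexamethasone, 5.74, 5.77, 5.87 and 5.91 with anti-*Vegf* and 5.91, 5.97, 5.63 and 5.87 with IgG, against 6.12, 5.89, 6.03 and 6.16 in naïve corneas, and every treated group overlapped with naïve.

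Inside the cell, 0 of the 8 members were called against naïve corneas, beside 7.8% of all genes lower and 10.4% higher in at least 1 comparison. With only 8 genes, a count of 0 is not far from those shares. *Ctnnb1*, β-catenin itself, differed by 0.13, 0.02 and -0.02 (SE 0.07) with dexamethasone, anti-*Vegf* and IgG on its brightest probe set. *Axin2*, which helps to degrade β-catenin and is itself a target of the pathway, differed by 0.12, -0.31 and -0.15 (SE 0.14). *Tcf7l1*, the family member that mostly represses, read 8.41, 8.28, 8.49 and 8.47 with dexamethasone, 8.41, 8.28, 8.29 and 8.46 with anti-*Vegf* and 8.49, 8.43, 8.38 and 8.44 with IgG, against 8.63, 8.73, 8.89 and 8.90 in naïve corneas. Its treated corneas were all below the naïve ones, and the difference, -0.37 ± 0.08 (SE, adjusted p = 0.00243), -0.42 ± 0.08 (SE, adjusted p = 7.99e-04) and -0.35 ± 0.08 (SE, adjusted p = 0.00321) with dexamethasone, anti-*Vegf* and IgG, passed the p-value limit but was under 1.5-fold. These values are of the brightest *Tcf7l1* probe set. With its probe sets averaged, the anti-*Vegf* difference was -0.14, so the further probe set did not share this fall. *Tcf7l2*, another Tcf factor, was likewise under 1.5-fold at -0.48, -0.52 and -0.57 (adjusted p = 0.0188, 0.0103 and 0.00624). *Axin1*, *Lef1*, *Nkd1* and *Tcf7* were neither called nor past the p-value limit against naïve.

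Tcf and Lef factors bind CTTTGAT and CTTTGAA, and these letters, searched on both strands, were in the windows of 3 of 29 members (10.34%), namely *Axin2*, *Tcf7* and *Nkd1*, beside 8.73% of all 33469 windows. A match is a run of letters and not a measured binding site. The *Axin2* and *Tcf7* windows are shown with the matches in capitals, because *Axin2* is the member known as a target of the pathway and *Tcf7* was called between treatments (RefSeq GRCr8; *Axin2*, chr10:94398535-94398834, plus strand; *Tcf7*, chr10:36954230-36954529, minus strand, read 5′ to 3′). The *Axin2* matches begin 232 and 132 bases before the start and that of *Tcf7* begins 4 bases before it.
*Axin2*: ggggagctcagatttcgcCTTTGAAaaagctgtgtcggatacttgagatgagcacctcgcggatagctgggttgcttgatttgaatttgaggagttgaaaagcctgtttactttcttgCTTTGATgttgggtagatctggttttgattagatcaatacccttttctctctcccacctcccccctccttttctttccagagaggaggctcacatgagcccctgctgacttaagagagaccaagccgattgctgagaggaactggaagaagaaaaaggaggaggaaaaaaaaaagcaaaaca
*Tcf7*: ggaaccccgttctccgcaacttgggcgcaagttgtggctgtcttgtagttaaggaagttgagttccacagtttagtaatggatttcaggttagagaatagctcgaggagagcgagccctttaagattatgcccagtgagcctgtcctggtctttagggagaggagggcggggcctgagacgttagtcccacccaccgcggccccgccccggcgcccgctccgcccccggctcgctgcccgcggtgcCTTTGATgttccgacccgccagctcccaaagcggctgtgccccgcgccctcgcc

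Between treatments, where a call needed an adjusted p under 0.05 and no fold limit, dexamethasone differed from anti-*Vegf* in 4 members, all higher (*Frzb*, *Fzd4*, *Wnt9a* and *Tcf7*; 9.76% of 41 higher and 0 lower), beside 4.63% of all genes higher and 2.50% lower. Dexamethasone differed from IgG in *Frzb*, *Fzd4* and *Lrp5*, which were higher, and *Fzd8*, which was lower (7.32% and 2.44%), beside 7.41% and 3.16% of all genes, so the share of members called was close to that of all genes. These 2 comparisons share the dexamethasone arrays. Anti-*Vegf* differed from IgG in 0 members and 0% of all genes by limma, with 3 members at an unadjusted p under 0.05 and 0 by an ordinary F test. The median difference of the members was 0.06 for dexamethasone against anti-*Vegf* and -0.03 against IgG, and that of all genes was 0.02 in both. Over all 6 comparisons, 28 members were called in none. Their differences from naïve ran from -0.54 (*Wif1*) to 0.54 (*Fzd1*) with dexamethasone, -0.72 (*Dkk2*) to 0.35 (*Fzd1*) with anti-*Vegf* and -0.57 (*Tcf7l2*) to 0.49 (*Fzd1*) with IgG.

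**Figure D3:**
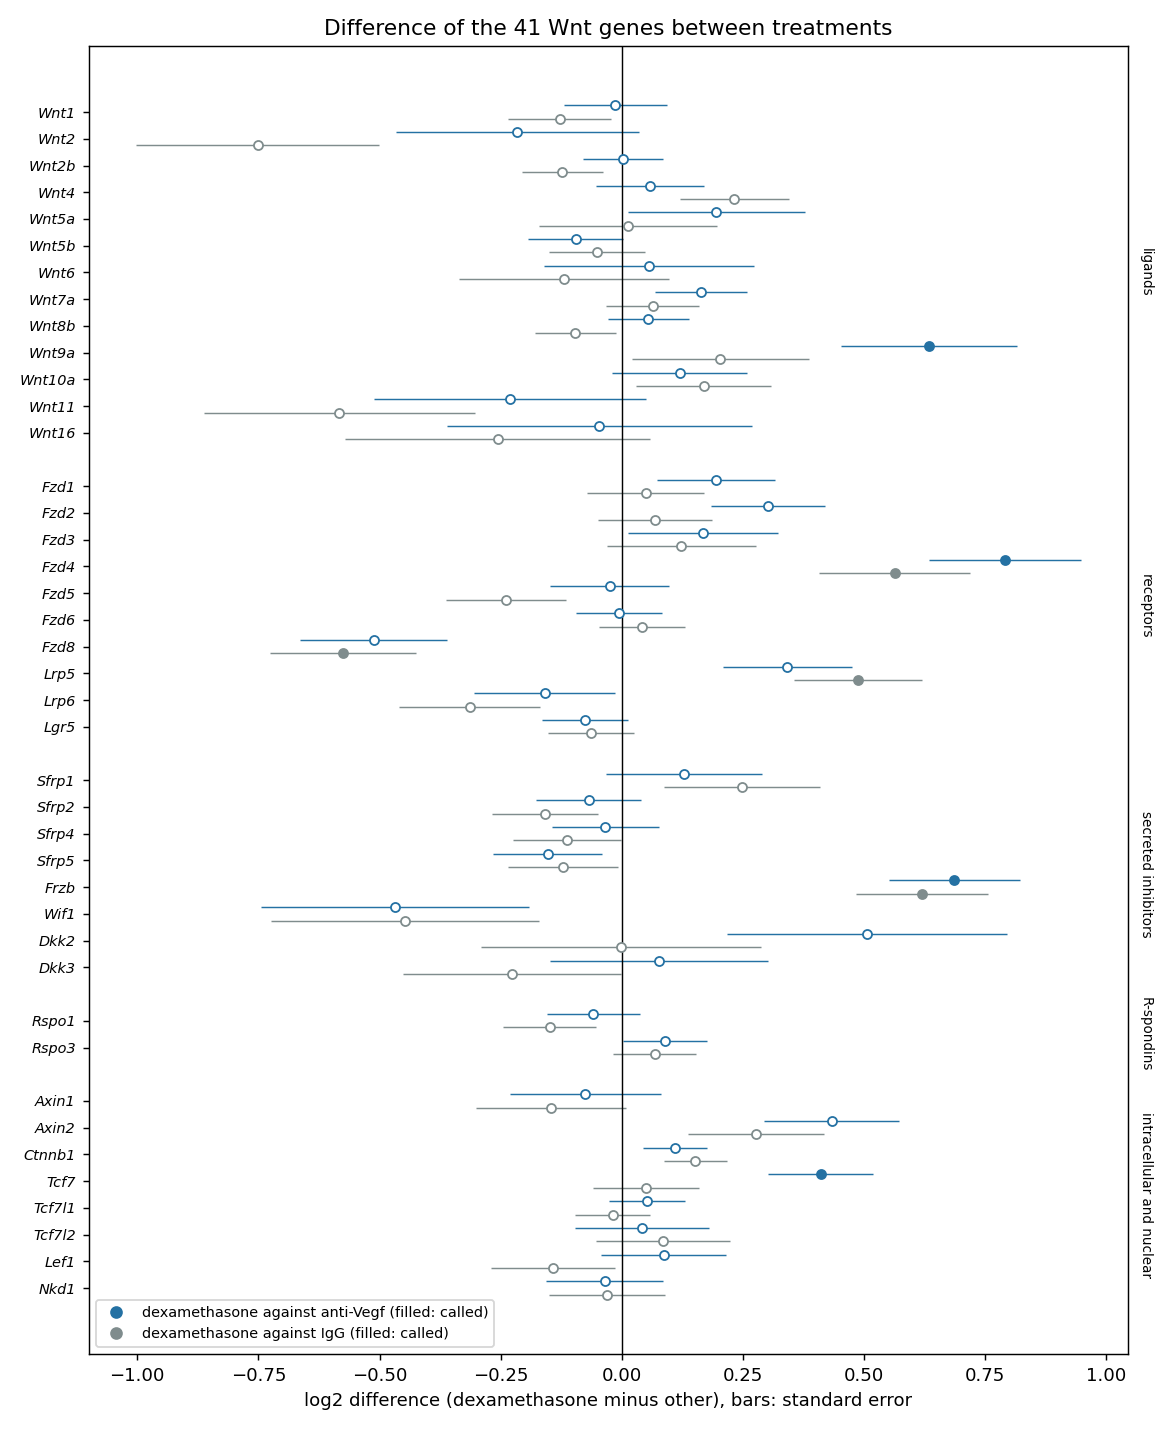
Log2 difference of each of the 41 Wnt genes (down the page, grouped by role) for dexamethasone minus anti-*Vegf* and dexamethasone minus IgG. Bars are SE from limma and filled points passed an adjusted p under 0.05. *Frzb* and *Fzd4* are filled on the right in both comparisons, and *Fzd8* is the filled point on the left, against IgG.

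*Frzb* had the firmest difference. Its dexamethasone corneas, listed above, were higher than anti-*Vegf* by 0.69 ± 0.14 (SE, adjusted p = 0.00781) and higher than IgG by 0.62 ± 0.14 (SE, adjusted p = 0.00947) (limma), with no overlap, and leaving out any single array kept both calls. An ordinary F test of the compared groups lost both (adjusted p = 0.115 and 0.0893). Its dimmer probe set differed by 0.91 ± 0.28 (SE, adjusted p = 0.0661) and 1.07 ± 0.28 (SE, adjusted p = 0.0255), called against IgG only. *Fzd4* was higher with dexamethasone than with anti-*Vegf* by 0.79 ± 0.16 (SE, adjusted p = 0.00778) and than with IgG by 0.56 ± 0.16 (SE, adjusted p = 0.0324), again with no overlap. Its call against IgG was lost without any of IgG replicates 1 to 4 or dexamethasone replicate 1 or 3 (0.43 to 0.70 over all single arrays), both antibody groups were in the dim part of the array, and its further probe set differed by 0.09 and 0.02 with no call. The poly-A controls also set dexamethasone and naïve arrays apart from both antibody groups. So did the mean 5′ minus 3′ signal of *Gapdh*, at -0.385 with dexamethasone and -0.304 in naïve arrays. It was -0.114 with anti-*Vegf* and -0.076 with IgG. The part of labelling and RNA length in the *Frzb* and *Fzd4* differences was not tested.

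*Wnt9a* was higher with dexamethasone than with anti-*Vegf* by 0.63 ± 0.18 (SE, adjusted p = 0.0474), with 1 dexamethasone cornea (6.81) under the highest anti-*Vegf* cornea (6.83). This call was lost without any of 11 arrays (dexamethasone replicates 1, 2 and 4, anti-*Vegf* replicates 2 to 4, IgG replicates 3 and 4, and naïve replicates 1, 3 and 4), with differences between 0.53 and 0.77 over all single arrays. *Tcf7*, which encodes the T cell factor TCF-1, read 6.54, 6.40, 6.55 and 6.37 with dexamethasone, 6.36, 6.07, 5.74 and 6.05 with anti-*Vegf* and 6.36, 6.47, 6.52 and 6.31 with IgG, against 6.30, 6.16, 6.21 and 6.44 in naïve corneas. Dexamethasone corneas lay just above all anti-*Vegf* corneas and overlapped with IgG and naïve. The difference from anti-*Vegf* was 0.41 ± 0.11 (SE, adjusted p = 0.0338), lost without dexamethasone replicate 1, 2 or 3 or anti-*Vegf* replicate 2, 3 or 4 (0.30 to 0.51).

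*Fzd8* was lower with dexamethasone than with IgG by 0.57 ± 0.15 (SE, adjusted p = 0.0247), and dexamethasone replicate 1 (8.23) overlapped with IgG replicate 4 (8.18). Against anti-*Vegf* it differed by -0.51 ± 0.15 (SE, adjusted p = 0.0528). *Lrp5* was higher with dexamethasone than with IgG by 0.49 ± 0.13 (SE, adjusted p = 0.0290), with IgG replicate 1 (7.17) among the dexamethasone values, and differed from anti-*Vegf* by 0.34 ± 0.13 (SE, adjusted p = 0.139). The *Fzd8* call was lost without IgG replicate 1, 2 or 3 or dexamethasone replicate 2 (-0.69 to -0.43), and the *Lrp5* call without IgG replicate 2, 3 or 4 or dexamethasone replicate 1, 3 or 4 (0.41 to 0.65). *Axin2* was 0.43 ± 0.14 (SE, adjusted p = 0.0755) against anti-*Vegf* and 0.28 ± 0.14 (SE, adjusted p = 0.235) against IgG, outside the limit in both.

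Further probe sets did not always follow the probe set with the highest mean of the same gene. Of the 41 members, 18 had more than 1 probe set, 27 further ones in all, and none of the values below entered the counts of genes. Over all 68 member probe sets, 5 were higher and 7 lower with dexamethasone than with IgG, beside 5.37% and 4.56% of all probe sets, and 6 of the 7 lower ones were further probe sets (2 of *Ctnnb1* and 1 each of *Tcf7l1*, *Tcf7l2*, *Wnt11* and *Dkk3*). Among them was a second *Ctnnb1* probe set, which read 11.98, 11.83, 12.05 and 11.83 with dexamethasone, 12.33, 12.32, 12.38 and 12.13 with anti-*Vegf* and 12.38, 12.50, 12.44 and 12.59 with IgG, against 11.80, 11.99, 11.81 and 11.71 in naïve corneas. Dexamethasone overlapped with naïve, and both antibody groups were above them. It was higher than naïve by 0.65 ± 0.08 (SE, adjusted p = 4.39e-05) with IgG and lower with dexamethasone than with anti-*Vegf* and IgG by 0.37 ± 0.08 (SE, adjusted p = 0.0156) and 0.56 ± 0.08 (SE, adjusted p = 8.94e-04).

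A second *Tcf7l1* probe set likewise differed by -0.42 ± 0.09 (SE, adjusted p = 0.0141) between dexamethasone and anti-*Vegf* and by -0.52 ± 0.09 (SE, adjusted p = 0.00263) between dexamethasone and IgG, and a second *Wnt11* probe set by -0.57 ± 0.16 (SE, adjusted p = 0.0328) against IgG. A second *Sfrp1* probe set was lower with dexamethasone than with anti-*Vegf* by 0.63 ± 0.17 (SE, adjusted p = 0.0378). A dimmer *Tcf7l2* probe set was lower than naïve with IgG by 1.15 ± 0.38 (SE, adjusted p = 0.0341), where naïve arrays 1 and 2 read 8.50 and 8.83 and arrays 3 and 4 read 7.59 and 7.51. The poly-A controls stood low in dexamethasone and naïve arrays and high in both antibody groups, the order of the second *Ctnnb1* probe set, and the part of labelling in these values was not tested.

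**Figure D4:**
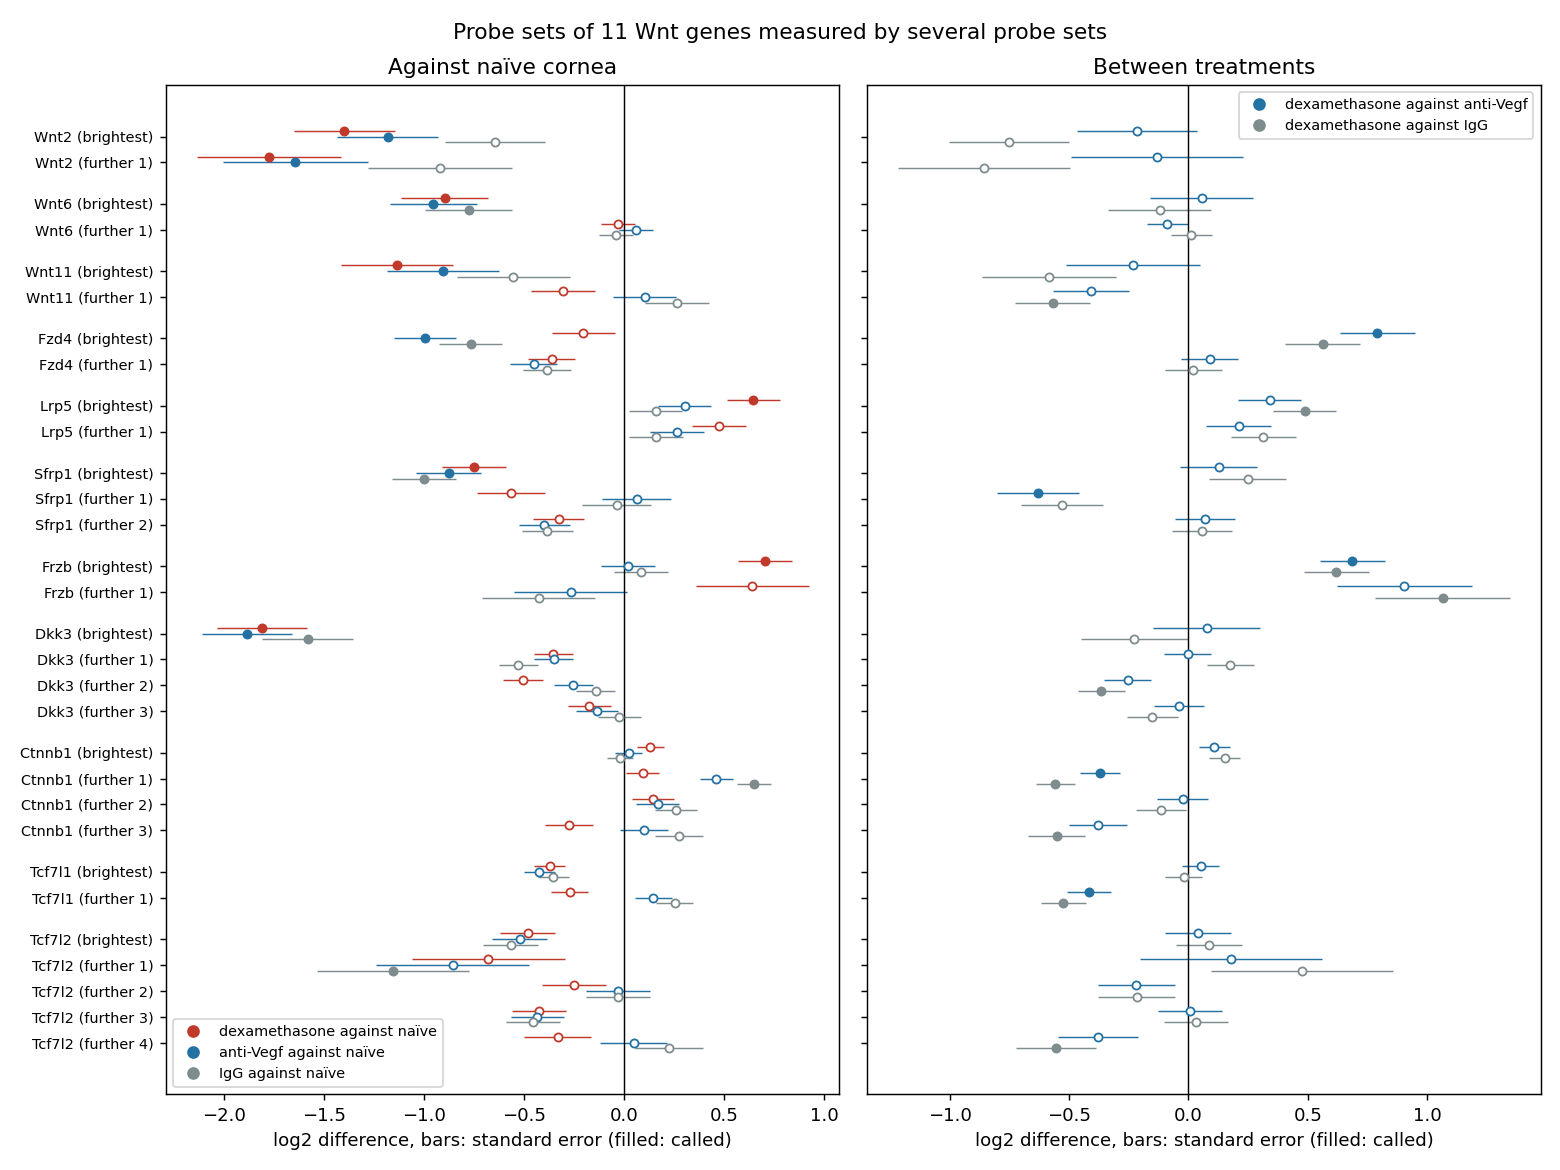
Log2 differences of every probe set of 11 Wnt genes that have more than 1, with changes against naïve on the left and dexamethasone against anti-*Vegf* and IgG on the right. The probe sets of *Wnt2* and *Lrp5* lie close together, and those of *Wnt6*, *Dkk3* and *Ctnnb1* lie apart.

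The median SD of the members was 0.20 with dexamethasone, 0.18 with anti-*Vegf*, 0.15 with IgG and 0.16 in naïve corneas, where that of all genes was 0.15, 0.14, 0.12 and 0.15. Dexamethasone replicate 2 was the lowest of its group for 18 of the 41 members, while the other dexamethasone arrays were lowest for 4 to 10. It held the lowest dexamethasone value of *Wnt16*, *Wnt2*, *Wnt6*, *Fzd8*, *Sfrp1* and *Dkk3*. No test was made of this spread.

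Markers of other cell types moved in the same comparisons. Of 11 keratocyte markers, 3 were lower than naïve with dexamethasone, 8 with anti-*Vegf* and 4 with IgG, and their mean level ran from 10.82 to 11.09 with dexamethasone, 10.09 to 10.80 with anti-*Vegf* and 10.56 to 10.998 with IgG, against 11.18 to 11.51 in naïve corneas. Of 7 corneal endothelium markers, 3, 5 and 4 were lower, with means of 9.90 to 10.10, 9.30 to 10.15 and 8.89 to 10.16 in the same order, against 10.41 to 10.93 in naïve corneas. The leukocyte marker mean ran from 7.68 to 8.51, 8.10 to 8.22 and 7.96 to 8.37, against 6.25 to 6.41 in naïve corneas. Between dexamethasone and anti-*Vegf*, 4 of the 11 keratocyte and 2 of the 7 endothelium markers were higher with dexamethasone, and between dexamethasone and IgG 0 of 11 and 1 of 7. The part of the cell mixture in the Wnt changes was not tested.

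Of 70 further genes of the pathway, 10 were higher and 9 lower than naïve with dexamethasone (14.3% and 12.9%, beside 8.19% and 4.45% of all genes), 7 and 8 with anti-*Vegf* (10% and 11.4%, beside 6.82% and 5.94%), and 7 and 7 with IgG (10% each, beside 6.32% and 5.02%). Dexamethasone was higher than anti-*Vegf* in 3 and lower in 3 (4.29% each, beside 4.63% and 2.50% of all genes). It was higher than IgG in 4 and lower in 1 (5.71% and 1.43%), below the 7.41% and 3.16% of all genes. Among 14 further receptors and surface regulators, 4, 5 and 4 were lower than naïve with dexamethasone, anti-*Vegf* and IgG (28.6%, 35.7% and 28.6%), and 0 higher. *Sostdc1*, a secreted Wnt and BMP antagonist, fell by 1.50 with dexamethasone, 1.91 with anti-*Vegf* and 1.63 with IgG (adjusted p = 5.09e-04, 5.83e-05 and 2.44e-04). The glypican *Gpc3* fell by 1.01, 1.31 and 0.93 (adjusted p = 9.27e-04, 8.98e-05 and 0.00157), and *Cthrc1*, a secreted protein that binds Wnt and Frizzled, by 1.16, 1.10 and 1.18 (adjusted p = 4.45e-04, 5.79e-04 and 3.76e-04). The glypican *Gpc4* was lower than naïve with anti-*Vegf* at -0.81 ± 0.16 (SE, adjusted p = 0.00134), was 0.02 with dexamethasone, and was higher with dexamethasone than with anti-*Vegf* by 0.83 ± 0.16 (SE, adjusted p = 0.00662), which is the order of *Fzd4*.

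Of 15 measured genes known as Wnt targets, 6 were higher and 1 lower than naïve with dexamethasone, 4 and 0 with anti-*Vegf*, and 6 and 0 with IgG (40% and 6.67%, 26.7% and 0%, and 40% and 0%), to be read beside the shares of all genes given for the 70 genes. The 15 include the members *Tcf7*, *Axin2*, *Lef1*, *Nkd1* and *Lgr5*, of which 0 were called against naïve. *Myc*, which drives growth, rose by 1.88, 1.36 and 1.56 with dexamethasone, anti-*Vegf* and IgG (adjusted p = 1.17e-06, 2.29e-05 and 7.59e-06), *Cd44*, the hyaluronan receptor, by 1.18, 1.50 and 1.30 (adjusted p = 5.28e-06, 4.36e-07 and 2.00e-06), and the AP-1 gene *Fosl1* by 1.44, 1.38 and 1.25 (adjusted p = 9.28e-05, 1.12e-04 and 2.92e-04). The cyclin gene *Ccnd1*, a commonly used target, passed the p-value limit in the other direction but under 1.5-fold, at -0.46, -0.57 and -0.58 (adjusted p = 0.0185, 0.00428 and 0.00415), and the target called lower, *Id2*, was at -0.61 with dexamethasone (adjusted p = 0.0129). Another AP-1 gene, *Jun*, read 1.01, 0.54 and 1.30 (adjusted p = 0.0230, 0.215 and 0.00438), and its dexamethasone call was lost without dexamethasone replicate 2, 3 or 4 or naïve replicate 3 (0.84 to 1.37 over all single arrays). The leukocyte markers and *Krt14*, a keratin of basal and migrating epithelium (1.55, 1.69 and 1.62), were higher in the same comparisons, and their part in the target genes was not tested. Among 28 further cytoplasmic and nuclear genes, 2, 2 and 1 were higher (7.14%, 7.14% and 3.57%) and 1, 1 and 1 lower (3.57% each). These shares were near or below those of all genes given for the 70 genes. *Gsk3b*, the kinase that marks β-catenin for degradation, rose by 0.64, 0.77 and 0.85 (adjusted p = 2.98e-05, 5.07e-06 and 2.00e-06). The co-repressor *Tle1* was higher by 0.89 with dexamethasone and 0.68 with anti-*Vegf* (adjusted p = 9.64e-04 and 0.00603), just under 1.5-fold at 0.52 with IgG, and its anti-*Vegf* change was 0.52 without anti-*Vegf* replicate 3. *Btrc*, a subunit of the ligase that ubiquitinates β-catenin, fell by 0.66 with anti-*Vegf* and 0.64 with IgG (adjusted p = 3.15e-04 and 4.44e-04) and read -0.30 with dexamethasone. Both *Btrc* calls were lost with probe sets averaged and also without naïve arrays 1 and 2. The smallest differences over the alternatives other than single arrays were -0.41 with anti-*Vegf* and -0.36 with IgG. Between treatments, the cytoplasmic adaptor *Dvl2* was lower with dexamethasone than with IgG by 0.77 ± 0.15 (SE, adjusted p = 0.00509). Its signal did not exceed the 40th percentile of the array on at least 4 arrays, so these are dim values. The call was lost under an ordinary F test of the compared groups (adjusted p = 0.0514).

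In the branches that act without β-catenin, 16 further genes of planar polarity and calcium signalling were measured. Of these, 2 were higher and 3 lower than naïve with dexamethasone (12.5% and 18.8%, beside 8.19% and 4.45% of all genes). With anti-*Vegf* the counts were 1 and 2 (6.25% and 12.5%, beside 6.82% and 5.94%). With IgG they were 0 and 2 (0% and 12.5%, beside 6.32% and 5.02%). These are few genes, and several of the shares were near those of all genes. The polarity cadherin *Celsr2* fell by 0.77, 0.70 and 0.68 with dexamethasone, anti-*Vegf* and IgG (adjusted p = 0.00249, 0.00407 and 0.00495), and without naïve replicate 1 its changes with anti-*Vegf* and IgG were -0.55 and -0.53, under 1.5-fold. The kinase *Nlk*, which phosphorylates Tcf and Lef factors, fell by 0.65 with anti-*Vegf* and 0.76 with IgG (adjusted p = 8.35e-04 and 2.77e-04), the first of these being -0.54 and under 1.5-fold without anti-*Vegf* replicate 3. *Daam1*, a formin, fell by 0.75 with dexamethasone (adjusted p = 5.17e-04) and read -0.38 and -0.34 with anti-*Vegf* and IgG. The polarity gene *Prickle2* rose by 0.86 with anti-*Vegf* (adjusted p = 0.00316) and read 0.21 with dexamethasone and 0.56 with IgG. Without naïve arrays 1 and 2, every *Celsr2* call, the *Daam1* call and the anti-*Vegf* call of *Nlk* were lost. Both *Nlk* calls were lost with probe sets averaged. Neither of the 2 genes measured for ligand release was called.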

How the data were processed

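The authors labelled RNA of single corneas with a 3′ IVT kit and hybridised it to 16 Affymetrix rat arrays. The deposited values are log2 signals, normalized by the authors with RMA in Affymetrix Expression Console, with no detection calls, and RMA compresses folds of dim probe sets. They were fitted with 4 group means in limma 3.58.1 (R 4.3.3), which the study's methods do not name, and p-values were adjusted by the Benjamini-Hochberg method over 31042 probe sets without controls. A gene was represented by its probe set with the highest mean. Probe sets of several genes were left out. Members given by array were those called in any comparison and, in a role with fewer than 2 of these, those with the smallest p until 2 were named. From each list of other pathway genes up to 4 called genes with the largest change were named. Other names were chosen after their values were seen. The members and lists were chosen with earlier results of these data known. Scan dates were not given in the sources used here. Promoter windows came from RefSeq (GRCr8, 29 of 41 members matched). The fit was tested on simulated data. Alternatives varied the test, arrays, scaling, signal filter, probe set rule and fold limit. The number of arrays limits the precision.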

Additional observations from a re-analysis of the deposited data

Results flagged for a closer look

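In 5 of 64 groups of 4 arrays examined for named members, 1 array lay far from the other 3 by Dixon's criterion, which chance alone meets in about 1 of 20 groups. They were naïve replicate 2 for *Wnt9a* (6.95), naïve replicate 4 for *Wnt16* (6.95), *Lrp5* (6.31) and *Dkk3* (10.94), and dexamethasone replicate 1 for *Rspo3* (5.79). Naïve replicate 4 was the lowest naïve array in all 3 of its genes.

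The change against naïve differed between treatments for several members by limma's test of the difference. Dexamethasone lay above anti-*Vegf* for *Frzb* by 0.69, *Fzd4* by 0.79, *Tcf7* by 0.41 and *Wnt9a* by 0.63. It differed from IgG by 0.62 for *Frzb*, 0.56 for *Fzd4*, -0.57 for *Fzd8* and 0.49 for *Lrp5*.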

How the results depend on the processing

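The dexamethasone differences from the antibody groups depended most on the processing. An ordinary F test in place of limma's moderated test called 0 members against anti-*Vegf* and 0 against IgG, and a fit of the 2 groups alone called 2 and 1. Counting a member called by any of its probe sets gave 7 and 10, and a 1.5-fold limit left 1 against IgG. With single arrays left out the counts ran from 2 to 5 against anti-*Vegf* (2 without anti-*Vegf* replicate 2, 3 or 4 or dexamethasone replicate 2) and from 1 to 5 against IgG (1 without IgG replicate 2 or 3, and 2 without IgG replicate 1 or 4 or dexamethasone replicate 3). Against naïve, the IgG count was 2 with probe sets averaged and 12 without the fold limit. A changed rule acts on all genes, whose shares under these rules are not given here. The shifts in these counts are therefore not read as a trait of the members. Single arrays left out gave 8 to 10 calls with dexamethasone, 8 to 12 with anti-*Vegf* and 6 to 8 with IgG. Centring on reference genes moved the percentage of all calls against naïve that were higher: with dexamethasone it was 52.5 centred and 64.8 as deposited, with anti-*Vegf* 42.8 and 53.5, and with IgG 47.4 and 55.8. Of 33 called changes of named members, 11 kept their call in every alternative and 22 lost it in at least 1, and 0 reversed. Leaving out naïve arrays 1 and 2 or 3 and 4 was chosen after seeing the data. No paired analysis was possible because replicate numbers do not link corneas across groups. No probe set has a detection call, so members near background have no measured bound.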
